A study of Mus musculus with 6 samples.

Results

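The epidermal growth factor receptor (EGFR) system was examined in colon epithelium through 10 genes. They were the receptors Egfr, Erbb2 and Erbb3, the ligands Areg, Ereg, Epgn, Hbegf and Tgfa, and the receptor inhibitors Lrig1 and Errfi1. Each was taken by its gene symbol from a table of 55487 genes, in which each symbol had 1 row. All 10 passed the filter on low counts, which kept 14650 genes, so none was left out of the test.

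Colonic intestinal epithelial cells (IECs) came from C57BL/6J littermates of 2 months that had all received 2% dextran sodium sulphate (DSS), a sulphated polysaccharide that injures the colonic epithelium. The 3 Nsd2 f/f libraries came from mice with loxP sites around Nsd2, a histone H3K36 methyltransferase gene, and no Cre. Their labels read WT, and the f/f genotype is taken from the study's text. The 3 Nsd2 Vil-KO libraries came from mice with the same loxP alleles and Cre under the Villin promoter, which is active in the epithelium of the small and large intestine and not in the stroma or in immune cells. The epithelium was shaken off in EDTA and filtered without a cell sort, no library of mice without DSS was included, and the day of collection for RNA-seq is not given in the sources used here. Nothing in the labels says whether a library came from 1 mouse or from several, so p-values measure only the spread between these libraries.

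Ligands of the EGF family are made as membrane-anchored precursors, released at the cell surface by ADAM metalloproteases, and bind receptor tyrosine kinases that act in pairs. EGFR binds all of the ligands named above, ERBB2 has no known ligand of its own and acts as a partner, and ERBB3 binds neuregulins and has little kinase activity. In the gut this system drives proliferation of crypt cells and closure of wounds, and both LRIG1 and ERRFI1 restrain it, the first by promoting loss of the receptors from the cell and the second by binding the kinase domain.

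The largest fold changes of the 10 were those of ligands. Areg and Hbegf were higher in each Nsd2 Vil-KO library than in each Nsd2 f/f library, by 3.1-fold and 1.85-fold on average, and both passed a screening criterion of more than 1.2-fold with p under 0.05, the p taken here before adjustment. The study's results give these limits for p-values without naming an adjustment, and its methods name an adjusted p. Of the 10 genes, 2 passed in the higher direction and 0 in the lower. Across all 14650 genes tested, 3.29% passed the criterion in either direction and 1.65% in the higher direction. At an adjusted p below 0.05 (edgeR's quasi-likelihood test, Benjamini-Hochberg) 0 of the 10 genes passed, and the share of all genes was 0%. Before adjustment 2 of the 10 had a p under 0.05 with edgeR and 3 with DESeq2, which added Ereg. The shares of all genes tested were 3.29% with edgeR and 4.32% with DESeq2. After adjustment DESeq2 called 0 of the 10 and 4 of all genes. Of all genes, 5.21% were higher in each Nsd2 Vil-KO library without overlap, against 2 of these 10. The median log2 ratio of Nsd2 Vil-KO to Nsd2 f/f (log2FC, from the edgeR model) of the 10 genes was 0.26, and that of all tested genes was 0.0012. For Areg and Ereg most of the size of the difference came from 1 library, Nsd2 Vil-KO replicate 2.

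The libraries held between 15439123 and 20350539 counted reads, and 3 counts corresponded to between 0.146 and 0.242 CPM, which are counts brought to a common library size with TMM scaling. Each log2FC is given with its standard error (SE). As a check of the labels, replicates 1, 2 and 3 of Nsd2 f/f had 47.9, 51.2 and 24.6 CPM of Nsd2, and those of Nsd2 Vil-KO had 24.2, 10.4 and 20.8 CPM. Nsd2 f/f replicate 3 thus lay beside the Nsd2 Vil-KO libraries in the level of the gene that the labels say it keeps. Exons of Nelfa on the opposite strand cover 0.357% of the exon bases of Nsd2. That library and Nsd2 Vil-KO replicate 2 stood apart from the rest: they contained Xist transcripts, at 347.1 and 204.4 CPM against at most 0.255 CPM elsewhere, and their mean Spearman correlations with the other libraries, over genes, were 0.937 and 0.927, against 0.959 to 0.964. Mitochondrial genes took 19.6% of the counts in Nsd2 f/f replicate 3 and 5.51% to 9.13% in the others. Markers of colon epithelium, 10 of 10 with counts in every library, summed to 11820 to 20280 CPM in Nsd2 f/f and 14000 to 16130 CPM in Nsd2 Vil-KO.

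Areg (ENSMUSG00000029378) encodes amphiregulin, an EGFR ligand induced in wounded and inflamed epithelium. In Nsd2 f/f, replicates 1, 2 and 3 had 41.7, 42.0 and 15.2 CPM of Areg (mean 33.0 ± 15.4, SD, n = 3). In Nsd2 Vil-KO they had 48.5, 213.7 and 45.4 CPM (mean 102.5 ± 96.3, SD, n = 3). The groups did not overlap, but the gap between the lowest Nsd2 Vil-KO library and the highest Nsd2 f/f library was small, and replicate 2 of Nsd2 Vil-KO stood 4.55-fold above the mean of the other 2 libraries of its genotype. Areg had a log2FC of 1.63 (SE 0.69, adjusted p = 0.992, edgeR's quasi-likelihood test). The exact two-sided permutation test gave p = 0.1, the smallest that 3 libraries against 3 allow. Without Nsd2 Vil-KO replicate 2 its log2FC was 0.51 (SE 0.43), and in the 4 libraries without Xist it was 0.18 (SE 0.12), both short of the criterion. Areg also fell short without Nsd2 f/f replicate 1, 2 or 3, at 1.84, 1.85 and 1.30.

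Hbegf encodes heparin-binding EGF-like growth factor, which binds EGFR and ERBB4. It was at 33.2, 29.7 and 13.8 CPM in the Nsd2 f/f libraries in the same order, averaging 25.6 ± 10.3 (SD, n = 3). In the Nsd2 Vil-KO libraries Hbegf was at 36.0, 61.3 and 45.2 CPM, averaging 47.5 ± 12.8 (SD, n = 3). The lowest Nsd2 Vil-KO library lay just above the highest Nsd2 f/f library, and as with Areg the lowest of all was Nsd2 f/f replicate 3 and the highest Nsd2 Vil-KO replicate 2. Its log2FC was 0.89 (SE 0.36, adjusted p = 0.992, edgeR's quasi-likelihood test, exact permutation p = 0.1). It was 0.67 (SE 0.37) without Nsd2 Vil-KO replicate 2, which did not pass, and 0.38 (SE 0.15) in the 4 libraries without Xist, which did. Hbegf also fell short without Nsd2 f/f replicate 2 or 3, at 1.01 and 0.60, and without Nsd2 Vil-KO replicate 3, at 0.93.

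Ereg encodes epiregulin, a ligand of EGFR and ERBB4. Its level was 1.14, 1.77 and 1.70 CPM in Nsd2 f/f, from 23, 30 and 21 counts. In Nsd2 Vil-KO it was 2.44, 12.8 and 0.92 CPM, from 50, 230 and 18 counts. The groups overlapped, since Nsd2 Vil-KO held both the highest and the lowest library, and replicate 2 was 7.6-fold above the mean of the other 2 of its genotype. Ereg had a log2FC of 1.81 (SE 0.93) and did not pass the criterion. Without Nsd2 Vil-KO replicate 2 it was 0.15 (SE 0.53). An antisense gene, Gm19610, covers 3.42% of the exon bases of Ereg, and whether reads were counted by strand is not given in the sources used here.

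Epgn encodes epigen, a low-affinity EGFR ligand, and was close to the limit of detection. It had 7, 15 and 0 counts in Nsd2 f/f, where 0 counts in replicate 3 allow up to 0.242 CPM, and 18, 4 and 51 counts in Nsd2 Vil-KO. In CPM these were 0.35, 0.89 and 0 against 0.88, 0.22 and 2.61. Here Nsd2 Vil-KO replicate 2 was the lowest of its genotype and replicate 3 the highest, unlike Areg and Ereg. Epgn had a log2FC of 1.5 (SE 1.04) and did not pass the criterion.

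Tgfa (chromosome 6, 86195223 to 86275719, GRCm38) encodes transforming growth factor alpha, the EGFR ligand that normal colon epithelium makes near its surface. It was at 23.6, 23.8 and 42.2 CPM in Nsd2 f/f and at 25.4, 61.2 and 24.2 CPM in Nsd2 Vil-KO. The high library of each genotype was the one with Xist transcripts, and the other 4 lay within a narrow range. The log2FC of Tgfa was 0.31 (SE 0.43) in 6 libraries, −0.26 (SE 0.30) without Nsd2 Vil-KO replicate 2, and 0.08 (SE 0.13) in the 4 libraries without Xist. None of these passed the criterion.

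**Figure D1:**
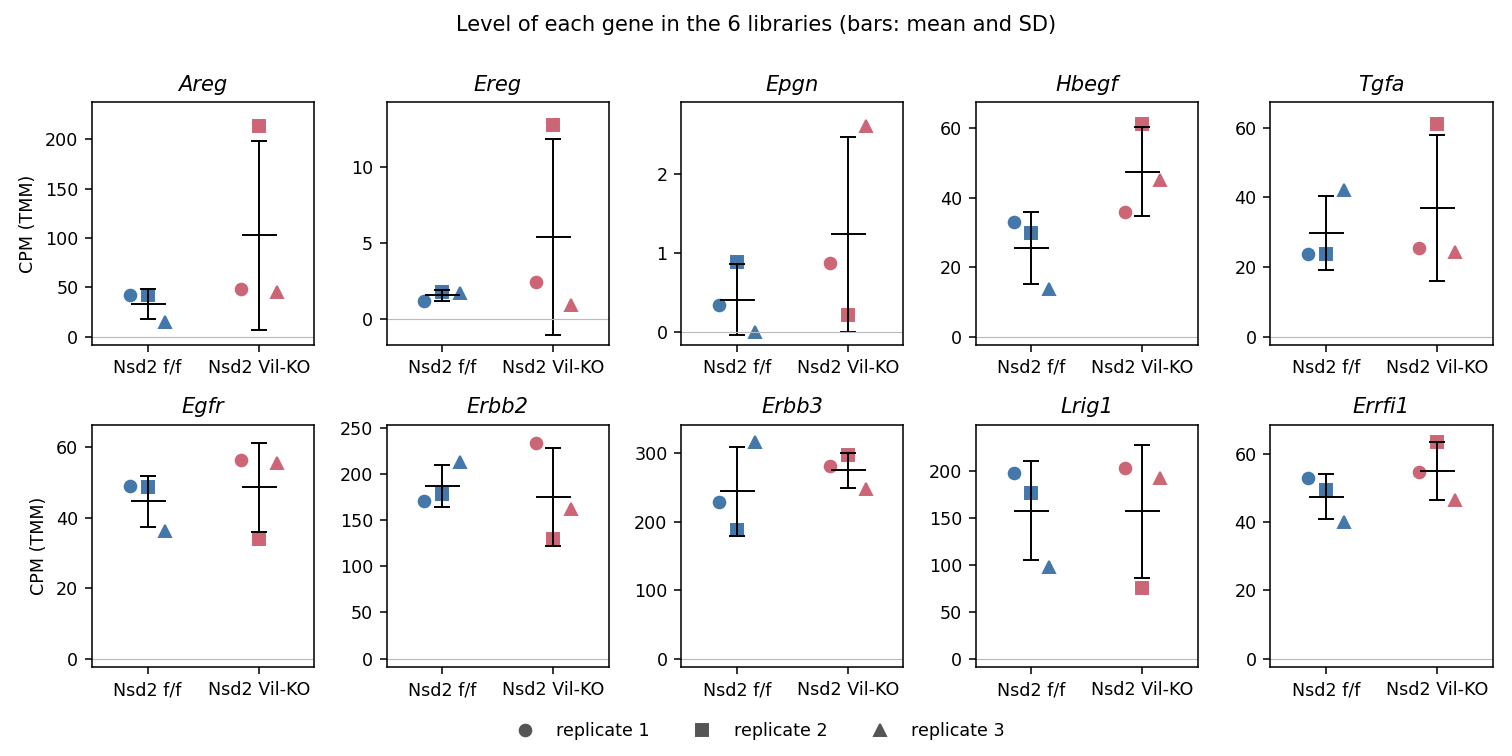
Level of each of the 10 genes in CPM after TMM scaling (vertical axis, linear) in the 3 Nsd2 f/f libraries (blue) and the 3 Nsd2 Vil-KO libraries (red). The marker shape gives the replicate, and bars give the mean and SD. In Areg, Ereg, Hbegf, Tgfa and Errfi1 the square of Nsd2 Vil-KO, replicate 2, is the highest point, and in Egfr, Erbb2 and Lrig1 it is the lowest.

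For Areg, Ereg and Hbegf the genotypes lay farther apart between the 2 libraries with Xist than among the other 4. Between those with Xist, the library given as Nsd2 Vil-KO had 14.1 times the Areg level of the library given as Nsd2 f/f, 7.52 times the Ereg level and 4.44 times the Hbegf level. Among the other 4 libraries the ratio of the group means was 1.12 for Areg, 1.15 for Ereg and 1.29 for Hbegf. Epgn had a ratio of 2.82 among the other 4 libraries. Between those with Xist it had 4 against 0 counts, too few for a ratio, so this comparison could not be made for Epgn. Each ratio between the libraries with Xist compares a library with a library and has no replicate error.

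Markers of other cells were examined beside these values, since the cells were not sorted. The 6 neutrophil markers summed to 664, 94.1 and 10.1 CPM in Nsd2 f/f and to 103, 1000 and 35.2 CPM in Nsd2 Vil-KO, with 5 of 6 having counts in every library. The sum was carried by S100a8 and S100a9, which were highest in Nsd2 Vil-KO replicate 2, at 573.9 and 404.9 CPM. The other 4 neutrophil markers were highest in Nsd2 f/f replicate 1, with Cxcr2 at 12.5 CPM there and 5.10 CPM in Nsd2 Vil-KO replicate 2, and Csf3r at 31.0 and 0.67 CPM. The sum was lowest in Nsd2 f/f replicate 3, and Nsd2 f/f replicate 1, with the next highest sum, had an Areg level like that of Nsd2 f/f replicate 2. Squamous markers summed to 4.85 to 20.7 CPM in Nsd2 f/f and 20.5 to 28.3 CPM in Nsd2 Vil-KO. Of the 8 squamous markers, 1 passed the criterion, Krt13, and Krt5 and Krt4 were at 0 in every library. Of 5 endothelial markers, Vwf passed in the higher and Pecam1 in the lower direction, with sums of 5.01 to 7.04 CPM in Nsd2 f/f and 5.49 to 7.56 CPM in Nsd2 Vil-KO. In the lists for fibroblasts and muscle, macrophages, lymphocytes and mast cells, and enteric neurons and glia, 0 markers passed. What part these cells had in the ligand levels was not tested, and in such bulk libraries a larger share of a cell type and more RNA per cell cannot be told apart.

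Areg, Ereg and Epgn lie side by side on chromosome 5 of GRCm38, on the same strand. Epgn spans 91027464 to 91035215, Ereg 91074622 to 91093646 and Areg 91139599 to 91148432, with gaps of 39.4 and 46.0 kb between them. Btc, the gene of the EGFR ligand betacellulin, follows on the other strand from 91357261 to 91402994, and no protein-coding gene lies in the gaps. In Nsd2 Vil-KO replicate 2 Areg, Ereg and Btc were each at their highest of the 6 libraries, while Epgn, 39.4 kb from Ereg, was not. Btc was at 5.60, 6.97 and 5.33 CPM in Nsd2 f/f and at 5.95, 17.3 and 4.04 CPM in Nsd2 Vil-KO (log2FC 0.60, SE 0.55).

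The promoters of these genes were read for short motifs. The 100 bases before the start of Areg (chr5:91139499-91139598, plus strand), of its neighbour Epgn (chr5:91027417-91027516, plus strand) and of Errfi1 (chr4:150854970-150855069, plus strand) are shown. Among the promoter windows searched, TATAAA was found in these 3. Sequences and starts are from RefSeq on GRCm38.p6, 5′ to 3′, and capitals mark TATAAA and the cAMP response element TGACGTCA.
Areg: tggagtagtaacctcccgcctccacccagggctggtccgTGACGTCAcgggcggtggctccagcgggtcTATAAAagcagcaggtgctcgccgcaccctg
Epgn: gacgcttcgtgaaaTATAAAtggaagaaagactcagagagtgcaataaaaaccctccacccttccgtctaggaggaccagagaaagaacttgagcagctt
Errfi1: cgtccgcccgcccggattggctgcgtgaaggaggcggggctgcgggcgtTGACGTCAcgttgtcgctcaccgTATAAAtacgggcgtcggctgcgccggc
Areg, and Errfi1 at this start, held both motifs, whereas Epgn held only TATAAA. In Areg TGACGTCA began 61 bases before the start and TATAAA 31 bases before it, and in Errfi1 they began 51 and 28 bases before it. In Epgn TATAAA began 86 bases before the RefSeq start at 91027517. The gene start given above for Epgn, 91027464, lies inside the 100 bases shown. Its distance to TATAAA thus depends on the start used. Promoter windows ran from 250 bases before to 50 bases after a start and were searched on both strands. They covered 7 of the 10 genes (8 windows, since Errfi1 had another start). The genes left out are named with the data processing, and the counts do not describe them. TGACGTCA was in 2 of the 8 and in 1.79% of 32851 such windows of all genes, and TATAAA in 3 of the 8 and in 13.6% of all. Both were in 0.17% of all windows. The AP-1 motif TGAGTCA was in 0 of the 8 windows (5.2% of all), and GGGCGG in 5 of the 8 (35.7% of all). A match describes these letters and does not show that a factor binds there.

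Levels of different genes were compared per kilobase of exon, as CPM per kb, because a longer transcript yields more reads. Over the 7 EGFR ligands measured (the 5 above with Btc and Egf), Areg made up 73.4%, 73.5% and 52.6% of the summed level in Nsd2 f/f and 74.1%, 85.7% and 70.3% in Nsd2 Vil-KO. Hbegf came next in the 5 libraries other than Nsd2 f/f replicate 3 and held 12.0% to 14.7% of the sum in Nsd2 f/f and 6.17% to 17.6% in Nsd2 Vil-KO. Tgfa took 27.4% in Nsd2 f/f replicate 3, where Areg was low, and 4.6% to 7.81% in the other libraries. Ereg and Epgn each stayed at or below 2.71%. The sum itself was 46.8, 47.0 and 23.7 CPM per kb in Nsd2 f/f and 53.8, 205.0 and 53.2 CPM per kb in Nsd2 Vil-KO, and it lay between 46.8 and 53.8 in the 4 libraries without Xist. Per kb of exon, Areg thus had the largest share of the EGFR ligands in every library of either genotype. In CPM, without division by length, Tgfa was above Areg in Nsd2 f/f replicate 3, at 42.2 against 15.2. Hbegf and Areg were close in Nsd2 Vil-KO replicate 3, at 45.2 and 45.4 CPM. The shares thus depend on the exon lengths used, 1.215 kb for Areg, 4.834 kb for Hbegf and 6.49 kb for Tgfa.

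**Figure D2:**
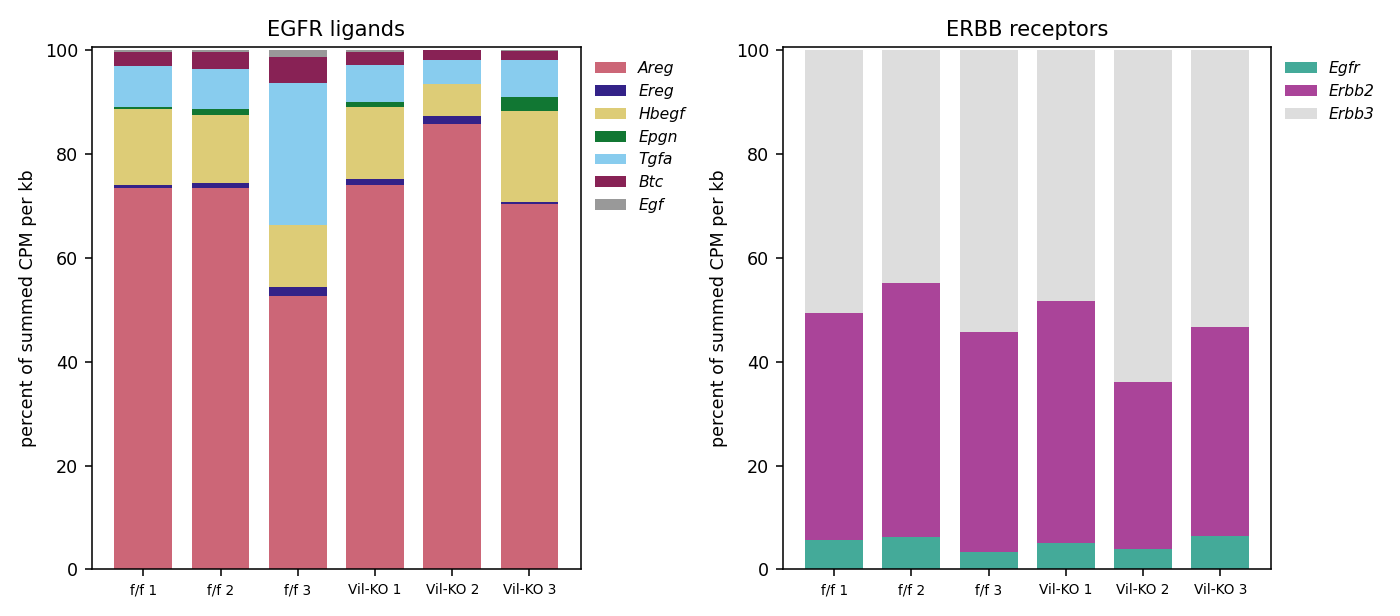
Share of each gene in the summed CPM per kb (vertical axis, percent) of 7 EGFR ligands (left) and of 3 ERBB receptors (right) in each library (horizontal axis, genotype and replicate). Areg is the largest ligand segment in each bar, from 52.6% to 85.7%, and Egfr the smallest receptor segment, from 3.33% to 6.38%.

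The receptors showed no such split between the genotypes. Egfr (chromosome 11, 16752203 to 16918158), the receptor of these ligands, was at 48.9, 48.7 and 36.4 CPM in Nsd2 f/f and at 56.3, 34.1 and 55.6 CPM in Nsd2 Vil-KO. Its lowest libraries were the 2 with Xist transcripts, 1 of each genotype. Egfr had a log2FC of 0.12 (SE 0.25) and, without Nsd2 Vil-KO replicate 2, 0.33 (SE 0.18).

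Erbb2 (chromosome 11, 98412470 to 98437716), the partner receptor without a known ligand, was at 170.4, 178.4 and 213.0 CPM in Nsd2 f/f and at 233.6, 129.7 and 161.6 CPM in Nsd2 Vil-KO, and the groups overlapped fully. Its log2FC was −0.10 (SE 0.25). Erbb3 (chromosome 10, 128567523 to 128589652), the neuregulin receptor, was at 228.4, 188.2 and 315.3 CPM in Nsd2 f/f and at 280.7, 296.7 and 246.9 CPM in Nsd2 Vil-KO, so that every Nsd2 Vil-KO value fell inside the Nsd2 f/f range. The log2FC of Erbb3 was 0.17 (SE 0.24) in 6 libraries and 0.35 (SE 0.14) in the 4 libraries without Xist, where it passed the criterion.

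Among the 3 receptors the composition was alike in most libraries. Erbb3 held 50.6%, 44.8% and 54.3% of the summed CPM per kb in Nsd2 f/f and 48.4%, 63.9% and 53.3% in Nsd2 Vil-KO. Erbb2 held 43.6%, 49.0% and 42.4% in Nsd2 f/f and 46.5%, 32.2% and 40.3% in Nsd2 Vil-KO, and Egfr the rest. In Nsd2 Vil-KO replicate 2, with the most ligand transcripts, the Erbb2 share was the lowest and the Erbb3 share the highest of the 6. The summed receptor level was 69.8 to 96.5 CPM per kb in Nsd2 f/f and 77.0 to 96.5 CPM per kb in Nsd2 Vil-KO. Erbb4 was outside the test, with at most 0.049 CPM in any library, so these cells held transcripts of 3 of the 4 ERBB receptors above the limit of 3 counts.

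Of the inhibitors, Lrig1 (chromosome 6, 94604529 to 94700158), which also marks colonic stem cells, was at 198.4, 176.6 and 98.0 CPM in Nsd2 f/f and at 203.5, 75.7 and 192.2 CPM in Nsd2 Vil-KO. Its low value in each genotype was in the library with Xist transcripts. Lrig1 had a log2FC of −0.01 (SE 0.42), with group means of 157.7 ± 52.8 and 157.1 ± 70.8 CPM (SD, n = 3 each). Errfi1 (chromosome 4, 150853919 to 150868892), an ERBB kinase inhibitor that EGFR signalling itself induces, was at 52.8, 49.3 and 40.2 CPM in Nsd2 f/f and at 54.9, 63.6 and 46.5 CPM in Nsd2 Vil-KO. Errfi1 had a log2FC of 0.21 (SE 0.19), with overlap between the groups, and 0.0002 in the 4 libraries without Xist. Neither inhibitor passed the criterion in either set of libraries.

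Ordered by the median CPM per kb over 6 libraries, the genes ran from Erbb3 (43.9) over Areg (36.0), Erbb2 (33.5), Lrig1 (33.0), Errfi1 (14.3), Hbegf (7.16), Egfr (4.31) and Tgfa (3.82) to Ereg (0.420) and Epgn (0.339). Of the 9 pairs of neighbours in this order, only Tgfa and Ereg had ranges that did not overlap, from 3.64 to 9.44 for Tgfa and from 0.223 to 3.09 for Ereg. Errfi1 was above Hbegf in 6 of 6 libraries although their ranges over libraries overlapped. Areg had the widest range in CPM per kb among the 10, from 12.5 to 175.9, and so had no fixed place in the order. Exon lengths were those of all annotated transcripts of a gene together, from 1.215 kb for Areg to 11.326 kb for Egfr. A gene with long unused exons may thus stand lower than its transcripts would. Which exons were used in these libraries was not examined.

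In the fit of 6 libraries 8 of the 10 genes had a log2FC above 0, against 50.1% of all genes tested. They did not share a common direction across single libraries. Nsd2 Vil-KO replicate 2 held the highest value for 5 of them (Areg, Ereg, Hbegf, Tgfa and Errfi1) and the lowest for 3 (Egfr, Erbb2 and Lrig1). That library held the highest value of 28.7% of all genes tested. Nsd2 f/f replicate 3 held the lowest value for 4 (Areg, Hbegf, Epgn and Errfi1). Without Nsd2 Vil-KO replicate 2, 0 of the 10 genes passed the criterion, against 5.08% of all genes in that fit, and their median log2FC was 0.24. In the 4 libraries without Xist 2 of the 10 passed, Hbegf and Erbb3, against 11.0% of all genes, with a median of 0.20.

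**Figure D3:**
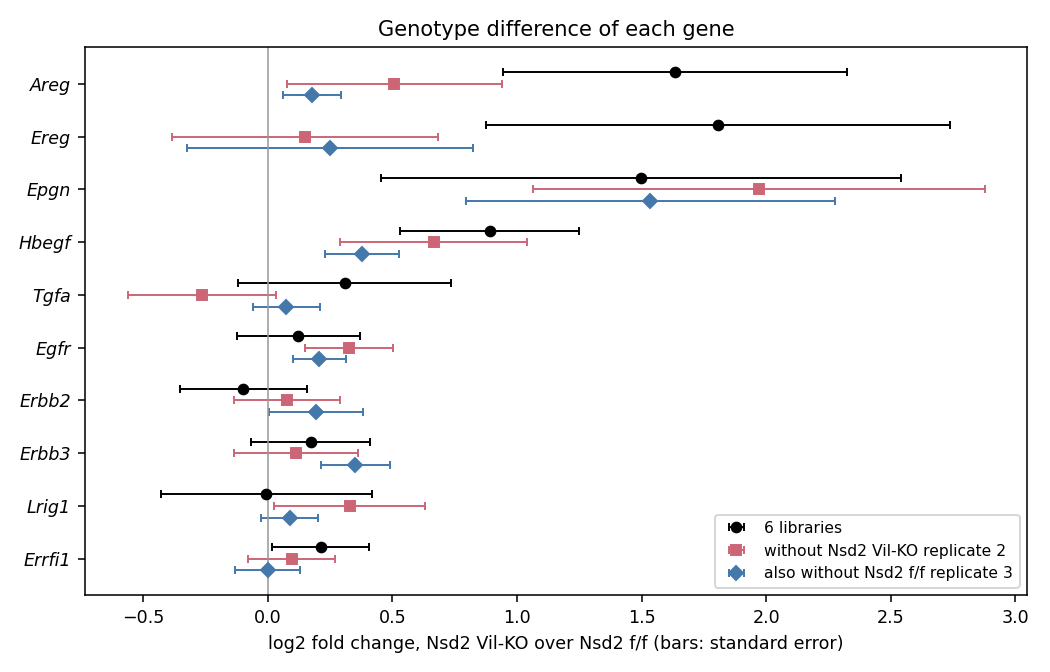
Log2 fold change of each gene (horizontal axis, Nsd2 Vil-KO over Nsd2 f/f) with its standard error in 6 libraries (black), in 5 without Nsd2 Vil-KO replicate 2 (red) and in the 4 without Xist transcripts (blue). The black points of Areg and Ereg, at 1.63 and 1.81, lie far from their red points, at 0.51 and 0.15.

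The rest of the pathway was read from 63 further genes, of which 58 passed the filter on low counts. Of these, 2 passed the criterion in the higher direction and 0 in the lower, beside 3.29% of all genes in either direction, and 0 passed at an adjusted p below 0.05 with edgeR or DESeq2. Before adjustment 2 had a p under 0.05 with edgeR and 4 with DESeq2, which added Gab2 and Dusp4, beside 3.29% and 4.32% of all genes. Their median log2FC was 0.18. Among them 9 had all Nsd2 Vil-KO values above all Nsd2 f/f values and 2 had all below, beside 5.21% and 4.70% of all genes. Of the 58, 29 had their highest value in Nsd2 Vil-KO replicate 2, beside 28.7% of all genes.

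Ligand release was represented by 6 genes. Rhbdf1, which encodes iRhom1, a carrier of the sheddase ADAM17 to the cell surface, was at 30.9, 27.8 and 19.95 CPM in Nsd2 f/f and at 43.9, 77.7 and 35.7 CPM in Nsd2 Vil-KO. Each Nsd2 Vil-KO value lay above each Nsd2 f/f value, with a log2FC of 1.00 (SE 0.33, adjusted p = 0.992, edgeR). Of 14 alternatives, Rhbdf1 lost its pass in 1, without Nsd2 f/f replicate 3 (log2FC 0.84, SE 0.36), and its log2FC was 0.60 without Nsd2 Vil-KO replicate 2 and 0.45 in the 4 libraries without Xist. The sheddases themselves did not pass: Adam17 was at 53.1, 54.1 and 37.7 CPM against 55.6, 31.7 and 58.0 CPM, and Adam10 at 170.8, 160.8 and 128.5 CPM against 190.3, 159.7 and 197.7 CPM. Adam9 and Rhbdf2 were higher in each Nsd2 Vil-KO library without passing, with log2FC of 0.35 and 0.50. All 6 genes of the shedding list had a log2FC above 0, as did 50.1% of all genes tested, and that of Adam17 was 0.0033 (SE 0.28) and below 0 without Nsd2 f/f replicate 3 (−0.14) and with Xist as covariate (−0.03).

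Of the genes that respond to ERK, the kinase at the end of the RAS cascade, Egr1 was the one that passed. It encodes an immediate early transcription factor and was at 13.9, 15.01 and 9.94 CPM in Nsd2 f/f and at 22.8, 42.9 and 16.3 CPM in Nsd2 Vil-KO (log2FC 1.07, SE 0.38), with no overlap. Egr1 lost its pass in 5 of 14 alternatives, among them without Nsd2 Vil-KO replicate 2 (0.59), without Nsd2 f/f replicate 1 (1.13) or 3 (0.92), and in the 4 libraries without Xist (0.45). Fos was also without overlap, at 114.3, 150.0 and 147.9 CPM against 176.9, 233.2 and 161.9 CPM, but did not pass, at 0.47 (SE 0.22). Of 10 response genes 9 were tested (Fosl1 was under the filter), 6 had values above 0 and 3 below.

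Of 9 ERK feedback inhibitors 0 passed, and 7 had their highest value in Nsd2 Vil-KO replicate 2. The phosphatase gene Dusp4 was at 7.98, 4.67 and 2.26 CPM in Nsd2 f/f and at 8.38, 29.7 and 5.31 CPM in Nsd2 Vil-KO, the same order of extremes as for Areg. Dusp6, another ERK phosphatase gene, was low in both libraries with Xist, at 41.1 and 46.6 CPM, and between 98.7 and 132.6 CPM in the others. The 2 phosphatases therefore did not move together in Nsd2 Vil-KO replicate 2. Of the 16 adaptor and receptor turnover genes and the 15 genes of the RAS, MAPK and PI3K core 0 passed, beside the same 3.29%. The largest log2FC among the adaptors was that of Gab2, at 0.89 (SE 0.40), and in the core the values ran from −0.35 for Map2k1 to 0.35 for Akt1.

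Of the other ligands, Egf was at 2.73, 2.07 and 3.39 CPM against 1.999, 3.38 and 1.48 CPM, and the neuregulin gene Nrg4 at 2.43, 1.42 and 0.97 CPM against 2.29, 1.22 and 1.33 CPM, without passing. Nrg1 and Nrg2 were under the filter, and Nrg3 had 0 counts in every library. Nrg1 and Nrg2 are the ligand genes of the abundant receptor Erbb3. Nrg1, which stromal cells make in the gut, was at 4.81 CPM in Nsd2 f/f replicate 1, the library with the highest sum of fibroblast and muscle markers (268.8 CPM, against 6.87 to 78.2 CPM in the others), and at most 0.88 CPM elsewhere.

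**Figure D4:**
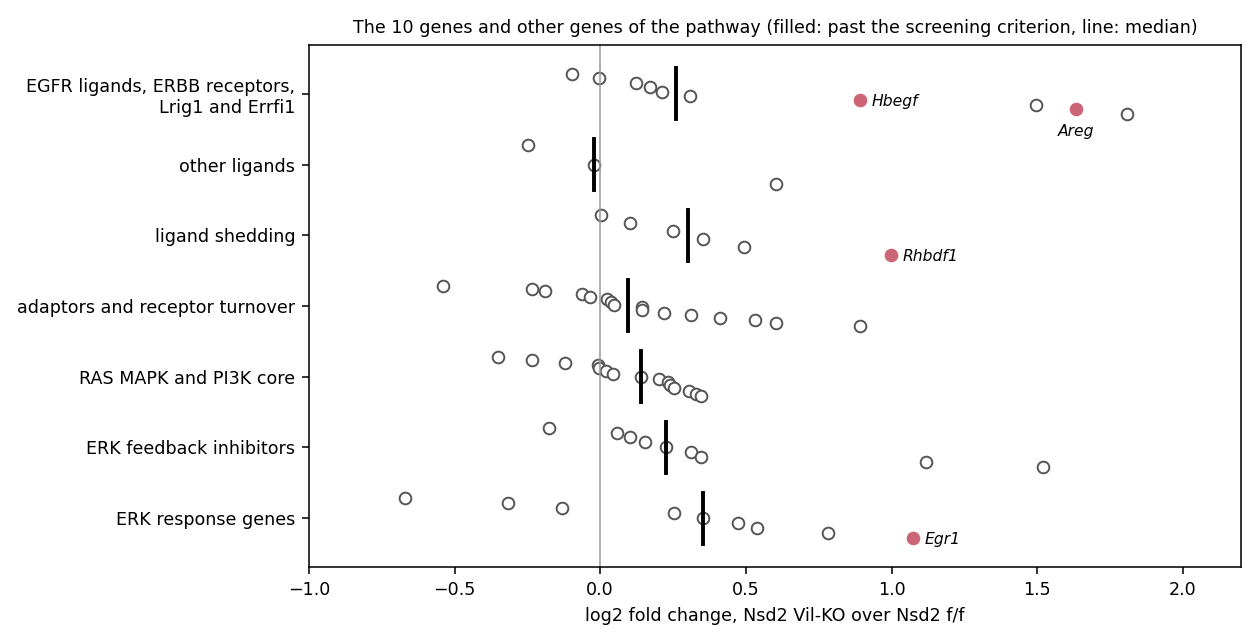
Log2 fold change (horizontal axis, Nsd2 Vil-KO over Nsd2 f/f, 6 libraries) of the 10 genes in the top row and of the 58 other tested pathway genes by list, with the list's median as a line. Filled points passed the screening criterion: Areg, Hbegf, Rhbdf1 and Egr1.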

How the data were processed

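The authors deposited raw counts for 55487 Ensembl genes in 6 libraries, neither normalised nor filtered. The methods and labels give Cutadapt, Trimmomatic, HISAT2 and GRCm38 (mm10), and their own test used FPKM. How reads were counted, and whether by strand, is not given in the sources used here, and the labels and methods name different library kits. Genes, exons and overlaps were taken from GENCODE vM21 (GRCm38) and promoters from RefSeq (GRCm38.p6). The promoters of Ereg, Erbb3 and Hbegf were left out of the motif search. The motif counts thus lack Hbegf, which passed the criterion. Protein sequences were not used here.

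They were tested with edgeR 4.0.16 under R 4.3.3 (TMM, filterByExpr by genotype, robust quasi-likelihood test without covariates, Benjamini-Hochberg adjustment over 14650 genes). The biological coefficient of variation was 41.2%. For single genes an exact two-sided permutation test over 10 splits was run on log2(CPM + 0.5). DESeq2 1.42.0 and limma 3.58.1 served as alternatives. Tested on simulated data for this comparison, 94.4% of 197 genes with a log2 change of 2 (14261 genes tested) passed the criterion and 58.9% an adjusted p below 0.05. The changed genes were drawn from those with more counts, and no library was simulated to stand apart. The largest log2FC of the 10 genes was 1.81, so these shares do not give the power for them. The 10 genes, the other pathway genes, the marker lists and the tests were chosen with earlier results of these data known. Named were the 10 genes, Nsd2, Xist and, of the other pathway lists, genes past the criterion or under the filter. The remaining genes named were chosen after their values were seen.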

Additional observations from a re-analysis of the deposited data

How the results depend on the processing

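Of 140 values of single genes under 14 alternatives, 113 kept their direction and side of the criterion, 13 lost a pass, 3 gained one and 11 changed sign. Erbb2 was at 0.0832 with limma-voom and 0.192 in the 4 libraries without Xist, and Lrig1 at 0.0923 and 0.088. When 1 library at a time was dropped, log2FC ran from −0.361 to 0.0779 for Erbb2, from −0.00141 to 0.326 for Egfr, from −0.264 to 0.642 for Tgfa and from −0.253 to 0.328 for Lrig1. Areg lost its pass in 9 alternatives, among them each Nsd2 f/f library or Nsd2 Vil-KO replicate 2 left out, and Hbegf in 4, with Nsd2 f/f replicate 2 or 3 or Nsd2 Vil-KO replicate 2 or 3 left out. Of the 10 genes, 1 passed with no low-count filter, with limma-voom, with Xist as covariate and with the older dispersion of edgeR, the last chosen after seeing the data, and 0 to 2 passed with a library left out. The count over all genes, 482, was 861 with no filter, 1440 with limma-voom, 1145 with Xist as covariate and 1646 in the 4 libraries. Dropping 1 library gave from 323 (Nsd2 f/f replicate 2 dropped) to 769 (Nsd2 Vil-KO replicate 2 dropped). DESeq2 gave 633, with 4 at an adjusted p below 0.05.

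With a replicate block the count over all genes was 303. The correlations of deviations between libraries of the same number were 0.322, −0.35 and −0.108. Those between libraries of different numbers ran from −0.359 to 0.309. Taken as deviations from means of 3 libraries, they cannot decide whether the numbers pair the libraries. At the depth of Nsd2 f/f replicate 3, the 0 counts of Epgn allow up to 0.242 CPM.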
